A study of Mus musculus with 12 samples.

Results

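The members described here are the broad merged m1A regions of the mouse caudate putamen, which is the dorsal striatum. The peaks of 6 m1A pull-down lists were merged wherever they shared at least 1 bp, and the members were chosen by width, so a merged region was called broad when it spanned 600 bp or more on chromosomes 1 to 19. This gave 411 broad regions among 13137 merged regions on those chromosomes (3.13%) and 13572 in the whole series. They covered 359 kb, or 10.6% of the merged length on chromosomes 1 to 19. The knockout (KO) group, genotype Tet1 delta/delta, consisted of adult male Tet1 fl/fl mice that had AAV-Cre-EGFP injected into the caudate putamen. The control group, genotype Tet1 fl/fl, received AAV-EGFP in the same place, so both groups carried loxP sites, a virus and EGFP. Tissue was collected 2 weeks after injection, and each group had 3 pull-downs, each with its own input. The promoter that drives Cre was not given in the sources used here, and cells of the region that took up no virus keep Tet1. The labels do not say whether the numbered libraries came from separate animals. In bulk tissue, fewer cells of a type and less RNA per cell cannot be told apart.

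m1A is adenosine carrying a methyl group on the base's Watson-Crick face, which blocks normal pairing with uridine. It is abundant in transfer RNA, where methyltransferases of the TRMT family place it, and is also found in ribosomal RNA. In messenger RNA it has been mapped mostly near the start of the coding sequence. AlkB-family dioxygenases can remove it, and TET1, which oxidises 5-methylcytosine in DNA, is a relative of that family. In antibody pull-downs the RNA is fragmented first, so a single modified base usually yields a peak about as wide as a fragment. A peak several fragments long is a stretch over which enriched fragments lie next to each other.

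No genome sequence was used here, so the letters of most regions cannot be shown. Of the 411 regions, 34 (8.27%) overlapped a promoter window, the 250 bp before and 50 bp after a RefSeq gene start, against 6.22% of the 12726 regions under 600 bp. A wider region has more room to meet a window, so the width rule itself favours a higher share. By highest summit, 21.8% of placed broad regions lay within 2 kb of the gene start, against 25% of placed narrower ones. Most of the windows overlapped by broad regions held no summit. The 4 windows below are shown because summits of broad regions lay inside them and their genes act at the synapse or in the striatum. Each is written 5′ to 3′ on the gene's strand from RefSeq (GRCm38.p6), with the first 50 transcribed bases in capitals.
Ppp1r9b, chr11:94990962-94991261, plus strand: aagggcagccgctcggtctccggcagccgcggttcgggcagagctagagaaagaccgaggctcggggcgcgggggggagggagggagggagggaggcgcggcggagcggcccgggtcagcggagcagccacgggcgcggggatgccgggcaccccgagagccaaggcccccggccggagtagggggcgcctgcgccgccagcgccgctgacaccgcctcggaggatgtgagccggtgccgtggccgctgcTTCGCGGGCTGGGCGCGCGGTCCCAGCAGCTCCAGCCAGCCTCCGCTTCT
Rasd2, chr8:75213694-75213993, plus strand: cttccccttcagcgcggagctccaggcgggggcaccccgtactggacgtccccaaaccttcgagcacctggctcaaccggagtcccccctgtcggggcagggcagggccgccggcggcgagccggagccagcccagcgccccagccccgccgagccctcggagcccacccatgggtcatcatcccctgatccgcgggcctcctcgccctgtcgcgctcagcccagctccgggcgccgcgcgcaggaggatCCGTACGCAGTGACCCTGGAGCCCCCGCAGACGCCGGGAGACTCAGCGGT
Sipa1l1, chr12:82169766-82170065, plus strand: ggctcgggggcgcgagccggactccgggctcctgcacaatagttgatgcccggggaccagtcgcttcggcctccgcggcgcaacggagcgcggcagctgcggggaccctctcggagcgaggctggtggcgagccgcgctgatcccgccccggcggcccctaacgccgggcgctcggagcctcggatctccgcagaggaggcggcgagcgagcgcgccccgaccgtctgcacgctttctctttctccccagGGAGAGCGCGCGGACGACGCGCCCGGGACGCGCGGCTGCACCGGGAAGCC
Lrrc4b, chr7:44442237-44442536, plus strand: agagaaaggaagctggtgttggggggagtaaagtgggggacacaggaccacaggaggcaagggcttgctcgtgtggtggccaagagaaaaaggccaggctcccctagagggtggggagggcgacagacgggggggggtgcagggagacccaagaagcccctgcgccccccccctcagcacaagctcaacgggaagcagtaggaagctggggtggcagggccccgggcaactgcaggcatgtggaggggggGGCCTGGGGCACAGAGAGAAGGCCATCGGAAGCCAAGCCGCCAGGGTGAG

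Ppp1r9b encodes spinophilin, a scaffold that brings protein phosphatase 1 to dendritic spines. All 6 libraries had a summit in its window, between 45 and 8 bp before the annotated start, and the capitals of the first sequence begin just after that point. The window was 77.3% G+C. The region over it, 656 bp wide, had fold enrichments of 6.68 in KO 1, 9.05 in KO 2 and 8.90 in KO 3, against 5.74, 7.06 and 9.85 in controls 1, 2 and 3, and the groups overlapped. Fold enrichment is the authors' ratio of pull-down coverage to local background within a library, and for each library the highest peak of the region is given. Fold enrichments are set side by side by genotype below, but they are not read as a measure of change in m1A. The reason is that the 3 KO pull-downs all had more tags than any control and each list was called separately.

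Rasd2 encodes Rhes, a small GTPase enriched in striatum. Its window was 74.7% G+C and held 2 summits, 37 and 31 bp before the start. Sipa1l1, a GTPase activator of the spine that acts on Rap, had 2 summits 108 and 100 bp before the start, in a window of 75.7% G+C. Its region was called in every library, but only 2 libraries had a summit in the window. Lrrc4b, a synaptic adhesion protein also called NGL-3, had 3 summits from 140 to 60 bp before the start, in a window of 66.3% G+C. Windows under broad regions had a median G+C of 71.3% (36 windows), those under narrower regions 68.0% (894) and all windows on these chromosomes 53.0% (31396). The tRNA-like motif GTTCNANNC, where N is any base, was searched on both strands. It occurred in 2 of the 36 windows (5.56%), in 6.15% of those under narrower regions and in 9.29% of all windows, and none of the 4 sequences above holds it.

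Library depth and calling differed between libraries, and their part in the counts below was not tested. Tags entering peak calling numbered 1235247, 2508102 and 1336328 in KO 1, 2 and 3, against 459332, 1097292 and 864206 in controls 1, 2 and 3. Control 1 stood apart. It was called with all duplicate tags kept, and in 72.3% of its peaks the length equalled the fragment length the caller had modelled, where the other 5 libraries had 11.5% to 15.9%. Gaps shorter than the tag length are bridged by the caller, and the tag length ran from 52 bp in KO 2 to 110 bp in control 1. KO 2, the deepest library, had the longest list. Of 32 markers of striatal projection neurons and dopamine signalling, 24 lay in a merged region, as did 36 of 40 chromatin regulators and 12 of 18 astrocyte markers. Oligodendrocyte markers had 10 of 18 and cortical excitatory neuron markers 6 of 12. Markers of microglia and of endothelial and mural cells had 5 of 14 each, choroid plexus 3 of 8 and striatal interneurons 2 of 12. Of all 49993 RefSeq genes considered, 6442 had a merged region. The lists were not tested against each other or against that base, so these counts are not read as a check of the tissue. Tet1 lay in no merged region, which gives no check of the deletion.

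Most broad regions were modest extensions of the threshold. Their median width was 767 bp, 240 were under 800 bp, 75 reached 1000 bp and 8 reached 2000 bp, while the median of the narrower regions was 197 bp. Just inside the threshold lay regions in Mfap1b (600 bp), Apba2 (602 bp) and the polyubiquitin gene Ubb (602 bp). Just outside lay regions in the long non-coding RNA gene Lncpint (599 bp), in Car11 (598 bp) and in the signalling adaptor Crkl (598 bp). The inside regions had highest fold enrichments of 8.17, 6.42 and 3.20 and the outside ones 22.1, 22.7 and 22.1. Ties at 598 bp were broken by the higher fold enrichment, so the Car11 and Crkl values were chosen to be high.

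In 352 of the 411 regions (85.6%) at least 1 library had a single peak of 600 bp or more. The other 59, from 605 to 908 bp wide, became broad only by chaining shorter peaks. A peak of that length came from 1 library alone in 227 regions, and that library was KO 2 in 149 of them. Of the 352, 194 had such a peak in KO libraries only, 84 in control libraries only and 74 in both. The 194 include the 149 of KO 2 alone, so this split rests largely on 1 library. The peak reached 600 bp in all 6 libraries in 12 regions, in the 3 KO libraries and no control in 7, and in the 3 controls and no KO library in 4. A region under 600 bp cannot hold such a peak, so narrower regions give no background. As a share of each list on these chromosomes, such peaks made up 2.16%, 3.35% and 2.28% in KO 1, 2 and 3. In controls 1, 2 and 3 they made up 0.784%, 3.84% and 3.77%. A library contributed more than 1 peak, up to 4, in 138 regions.

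The number of summits per region, which equals the number of peaks merged, had a median of 5 and a maximum of 15, against a median of 1 for narrower regions. These values follow from the merging and were not tested. The median of the highest fold enrichment per region was 12.2 for broad and 6.80 for narrower regions. This maximum is taken over more peaks in broad regions, so the merging favours a higher value there. Within each list, peaks in broad regions had median fold enrichments of 7.70, 9.68 and 8.03 in KO 1, 2 and 3 and of 8.47, 7.97 and 8.15 in controls 1, 2 and 3. Peaks elsewhere had 7.15, 7.14 and 7.53 in KO 1, 2 and 3, and 4.54, 7.09 and 7.08 in controls 1, 2 and 3. The median was higher in broad regions in every list, with the widest gap in control 1.

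KO 1, 2 and 3 had a peak in 276, 347 and 261 of the 411 regions, against 159, 314 and 297 in controls 1, 2 and 3. The mean was 295 ± 45.9 in KO libraries and 257 ± 85 in control libraries (SD, n = 3 each), and the groups overlapped. Single peaks of 600 bp or more numbered 79, 225 and 68 in KO 1, 2 and 3, and 24, 128 and 110 in controls 1, 2 and 3. Controls 2 and 3 therefore had more long peaks than KO 1 and KO 3 although they had fewer tags, and the extremes were KO 2 and control 1. As a share of each list, peaks in broad regions made up 9.23%, 5.78% and 10.7% in KO 1, 2 and 3 and 6.01%, 11.2% and 11.7% in controls 1, 2 and 3. The shares of KO 2 and control 1 were the lowest.

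**Figure D1:**
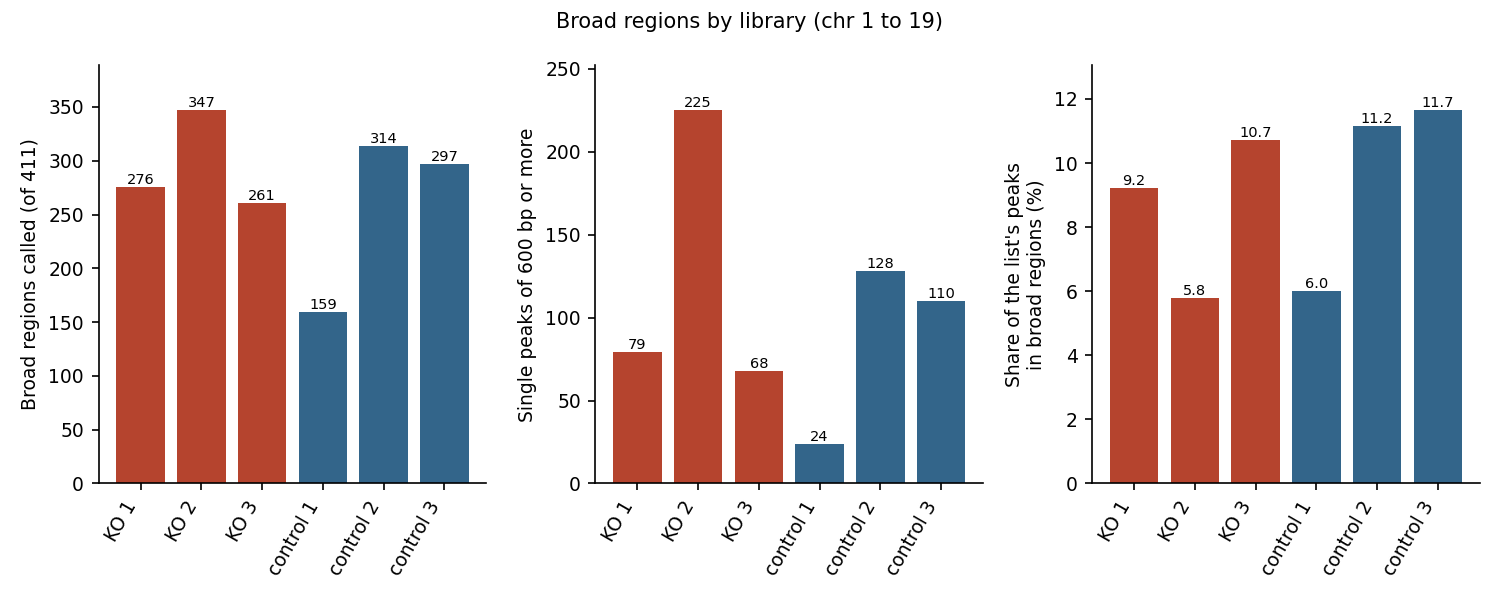
Bars give, for each library, the number of broad regions with a peak (left), the number of single peaks of 600 bp or more (middle) and the share of the list's peaks that lie in broad regions in % (right), with KO libraries in red and control libraries in blue. KO 2 called 347 regions and control 1 called 159, and the other 4 libraries lie between 261 and 314.

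Broad regions recurred across libraries. All 6 libraries had a peak in 112 (27.3%), where the background over all merged regions of these chromosomes was 2.95%, and without control 1 the other 5 libraries shared 173. A wide region has more room for peaks, and more peaks make a region wider, so the rule itself favours recurrence. Another 62 regions lacked only control 1, and no share over all merged regions was computed for these. At the other end, 46 regions (11.2%, background 68.9%) were called in a single library, and in all of them that library was KO 2. Another 48 (11.7%, background 12.7%) were called in 2 libraries. Of these, 15 had 2 KO libraries, 15 had 2 controls, which were controls 2 and 3 each time, and 18 had 1 of each. Over all 1674 merged regions called in 2 libraries, the counts were 688, 361 and 625 in the same order.

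**Figure D2:**
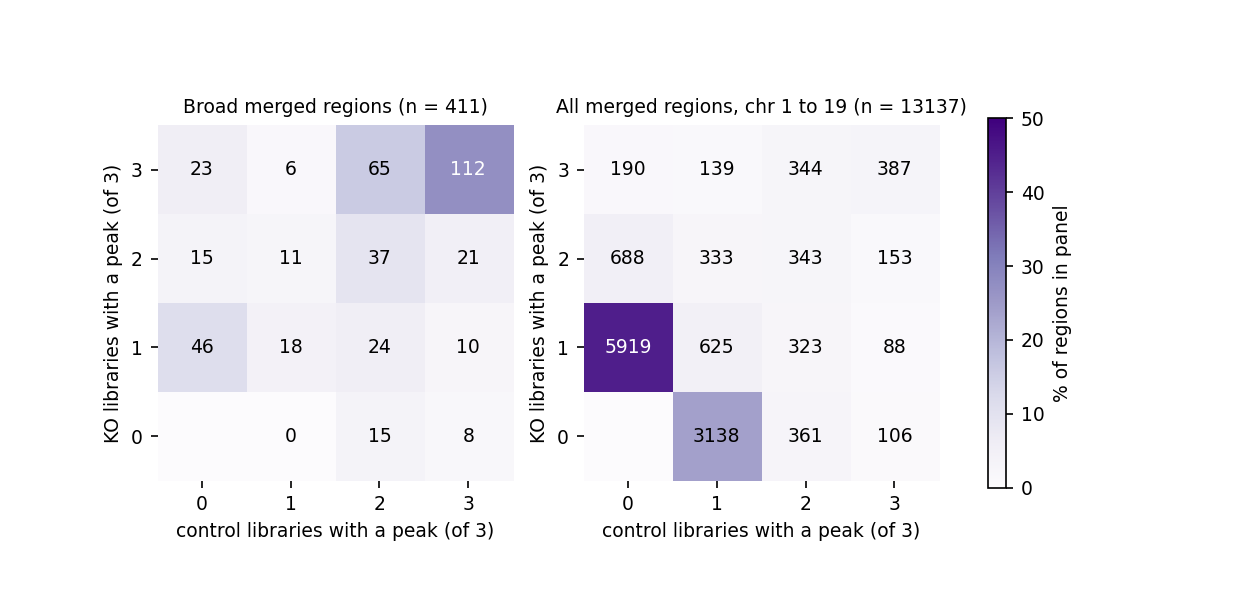
Each cell gives the number of merged regions with a peak in that many KO libraries (vertical axis) and control libraries (horizontal axis), for broad regions on the left and all regions of chromosomes 1 to 19 on the right, with shading for the % of the panel. The largest cell is 112 regions called in all 6 libraries on the left and 5919 called in 1 KO library alone on the right.

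The KO trio alone, meaning each KO library without any control, called 23 broad regions (5.6%, background 1.45%), and the control trio alone called 8 (1.95%, background 0.807%). Among regions called in exactly 3 libraries, 23 of 66 broad ones (34.8%, background 20.0%) were the KO trio and 8 of 66 (12.1%, background 11.1%) the control trio. The order depended on KO 2. Without it, 11 regions were called in both remaining KO libraries and in no control, and 13 in the 3 controls and in neither KO library. Without control 1 the control trio's count became 22, without control 2 it became 4, and without both control 1 and KO 2 the counts were 11 for KO and 32 for control. At least 1 KO library and no control called 84 broad regions (20.4%, background 51.7%), of which 11 were left when KO 2 was left out. At least 1 control and no KO library called 23 (5.6%, background 27.4%), which became 11 without control 2 and 14 without control 3.

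Among the 112 broad regions called in all 6 libraries, fold enrichment did not overlap between genotypes in 29. All KO libraries were lower than all controls in 25 (22.3%, background 15.8% of the 387 merged regions called in all 6) and higher in 4 (3.57%, background 2.84%). Both directions together made 25.9% of broad regions, against a background of 18.6%. Regions named below as not overlapping are read against these shares, and the part of depth in them was not tested.

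The widest region lay outside every annotated gene span, on chromosome 17 from 13585502 to 13591702, 6201 bp wide and 31408 bp from the long non-coding RNA gene 2700054A10Rik. It was called in every library, with 12 summits and 4190 bp covered in all 6. Fold enrichments were 19.3, 12.8 and 25.5 in KO 1, 2 and 3 and 72.1, 68.8 and 85.6 in controls 1, 2 and 3, so the controls lay above the KO libraries without overlap. A neighbour on the same chromosome from 13654457 to 13655318 was 862 bp wide and also outside any gene. It had 17.6, 16.0 and 17.7 in KO 1, 2 and 3 and 76.6, 39.7 and 49.6 in controls 1, 2 and 3, again without overlap.

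The second widest lay in Fhit, a hydrolase gene at a common fragile site, on chromosome 14 from 11047305 to 11049846 (2542 bp). Its fold enrichments were 11.4, 17.2 and 11.8 in KO 1, 2 and 3, against 14.5 and 12.0 in controls 2 and 3, and control 1 had no peak. Ccdc191 had 2431 bp on chromosome 16 from 43912213 to 43914643, with 9.02, 22.3 and 9.43 in KO 1, 2 and 3 and 4.80, 7.25 and 3.71 in controls 1, 2 and 3. Here every KO library was above every control, although no base was covered in all 6 libraries. Ankfy1, an endosomal effector of Rab5, shared 2252 bp on chromosome 11 from 72765010 to 72767261 with the long non-coding Gm46287. It had 14.4, 25.3 and 16.7 in KO 1, 2 and 3 and 8.12, 11.5 and 8.91 in controls 1, 2 and 3, and KO was higher without overlap. The 300 bp promoter window of Gm46287 lies wholly in this region and is a short unit repeated in tandem. How reads were placed in the repeat was not tested. Dip2a had 2248 bp on chromosome 10 from 76310410 to 76312657, with values that overlapped between genotypes (5.59 to 19.9 in KO, 6.45 to 11.5 in control libraries).

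Synaptic genes held some of the widest members. Slc6a17, a neutral amino acid transporter of synaptic vesicles, had a region of 2153 bp on chromosome 3 from 107478294 to 107480446 with 15 summits, the most of all. Its fold enrichments were 6.76, 13 and 9.91 in KO 1, 2 and 3 and 6.87, 11.8 and 14 in controls 1, 2 and 3. Control 2 called it as 1 peak of 2140 bp, while KO 2, KO 3, control 1 and control 3 each split it into 3, and the groups overlapped. Shank1, a master scaffold of the postsynaptic density, had 2076 bp on chromosome 7 from 44351558 to 44353633 with 14 summits. Fold enrichments were 7.08, 7.49 and 7.08 in KO 1, 2 and 3 and 13.8, 7.81 and 9.6 in controls 1, 2 and 3, so KO was lower without overlap, by a narrow margin at control 2. Controls 2 and 3 covered Shank1 with single peaks over 600 bp, whereas the KO libraries had 2, 4 and 3 shorter peaks.

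**Figure D3:**
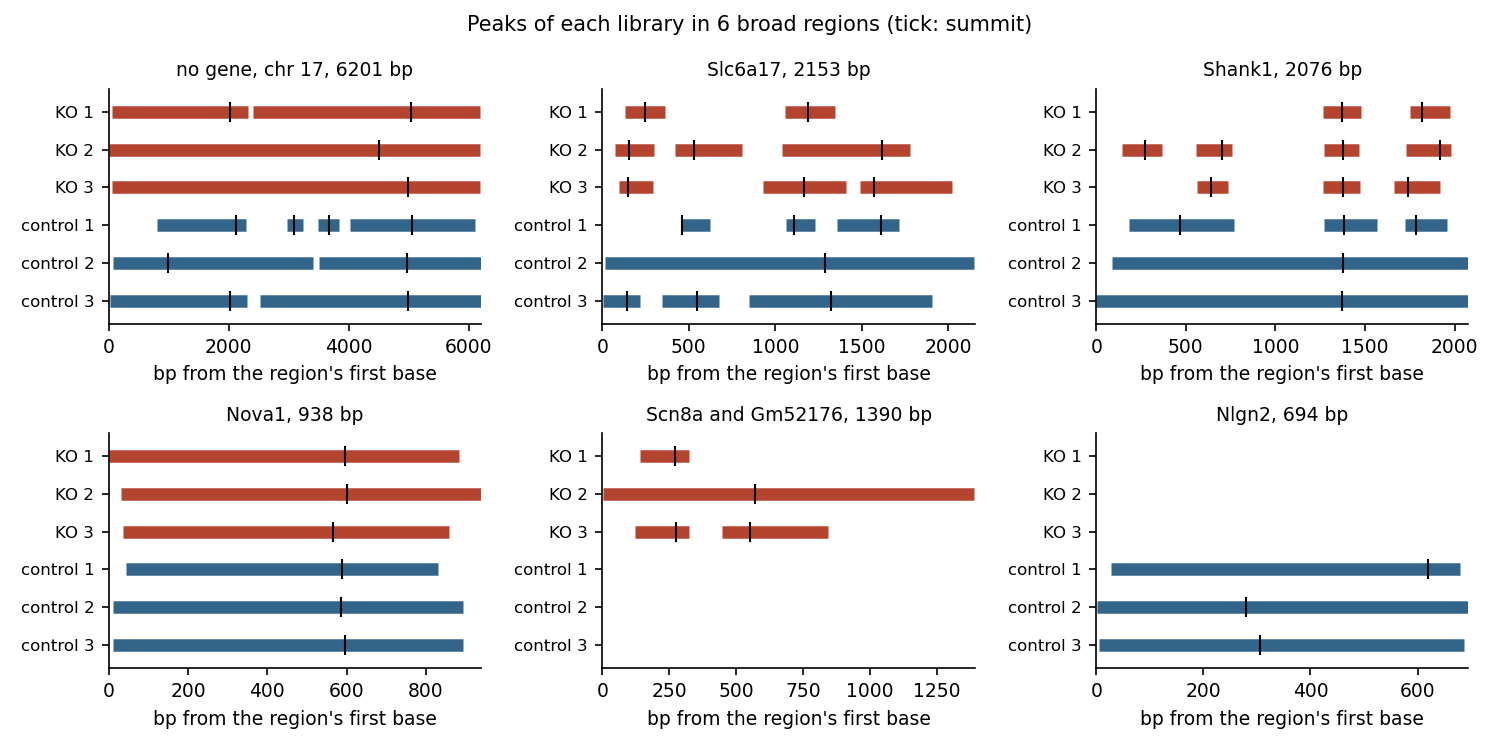
Horizontal bars are the peaks of each library (KO in red above, control in blue below) in 6 broad regions, with position in bp from the region's first base and black ticks at summits. Nova1 has nearly identical peaks in all 6 libraries, Shank1 is 1 long peak in controls 2 and 3 and several short ones elsewhere, Scn8a has peaks in KO libraries alone and Nlgn2 in control libraries alone.

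The remaining widest regions lay in genes of protein folding and respiration and in a nuclear RNA. Dnajc3, an endoplasmic reticulum cochaperone, had 2052 bp on chromosome 14 from 118962663 to 118964714, with 33.2, 26.3 and 33.1 in KO 1, 2 and 3 and 16.9, 19.9 and 15.4 in controls 1, 2 and 3. KO lay above control without overlap, and 1387 bp were covered in all 6 libraries. Ndufaf6, an assembly factor of respiratory complex I, had 1979 bp on chromosome 4 from 11053942 to 11055920 with 13 summits. Its values overlapped (25.5, 14.8 and 28.1 in KO 1, 2 and 3, and 13.3, 35.4 and 28.8 in controls 1, 2 and 3). Malat1, an abundant nuclear RNA, had 1899 bp on chromosome 19 from 5800687 to 5802585 with 12 summits but low enrichment, 3.4, 4.74 and 3.22 in KO 1, 2 and 3 and 3.98, 5.25 and 5.82 in controls 1, 2 and 3.

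Regions with many summits also lay in Strbp, which encodes a double-stranded RNA-binding protein (14 summits, 1454 bp), and Muc6, a mucin (12 summits, 1691 bp). Others were in the pseudokinase gene Ulk4 with Gm34735 (11, 1709 bp), in Lmf1, a maturation factor of lipases (11, 1500 bp), and in Nptn, the synaptic adhesion molecule neuroplastin (11, 1376 bp). The promoter window of Gm34735, 93 bp of which lie in the Ulk4 region, is also a tandem repeat. Among the 112 regions called in all 6 libraries, 57 had exactly 6 summits and 55 had more. The median width covered by all 6 libraries was 275 bp, a median of 34.3% of the region, and 11 regions had no base covered in all 6. The highest summits of the 6 libraries lay within 100 bp of each other in 40 of the 112 regions and more than 500 bp apart in 27, with a median spread of 192 bp.

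Among regions called in all 6 libraries, the 15 with the highest minimum enrichment ranged from 647 to 6201 bp. Bcr led with 647 bp on chromosome 10 from 75127992 to 75128638, where the summits lay within 19 bp. It had 38.6, 21.6 and 30.7 in KO 1, 2 and 3 and 22.8, 30.0 and 25.6 in controls 1, 2 and 3, and the groups overlapped. Cdh4, which encodes R-cadherin, had 761 bp on chromosome 2 from 179738418 to 179739178. Fold enrichments were 81.2, 37.1 and 70.4 in KO 1, 2 and 3 and 18.2, 41.7 and 33.4 in controls 1, 2 and 3, with KO 2 inside the control range. Nova1, a neuronal splicing factor, had 938 bp with summits within 34 bp and a single long peak in every library. It had 16.4, 15.7 and 16.2 in KO 1, 2 and 3 and 24.7, 37.0 and 34.4 in controls 1, 2 and 3, and KO was lower without overlap.

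Magi2, a synaptic scaffold, had 941 bp on chromosome 5 from 20672326 to 20673266, with 14, 12.9 and 11.6 in KO 1, 2 and 3 and 20.9, 17.8 and 16.5 in controls 1, 2 and 3, lower in KO without overlap. Lrrc1, a cell-polarity scaffold, had 1336 bp on chromosome 9 from 77531655 to 77532990. It had 10.4, 21.6 and 21.3 in KO 1, 2 and 3 and 48.0, 28.8 and 28.2 in controls 1, 2 and 3, also lower in KO. Adam9, a membrane metalloprotease, ran from 10.2 to 27.8 in KO and from 16.3 to 26.7 in control libraries. Arhgap26 ran from 13.2 to 19.3 in KO and from 14.8 to 15.2 in control libraries. Ptprn2, a phosphatase-like protein of dense-core vesicles, whose span overlaps Gm5441, ran from 12.4 to 13.9 in KO and from 14.4 to 21.7 in control libraries, lower in KO without overlap. The other 3 of these 15, besides the pair on chromosome 17, lay on chromosome 8 outside any gene. A pair stood 8257 bp apart, 35 bp from Fam32a and 4631 bp from Ap1m1, and the other lay 9046 bp from the pseudogene Gm20797. Their fold enrichments ran from 12.3 to 34.1 in KO and from 12.1 to 26.2 in control libraries.

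**Figure D4:**
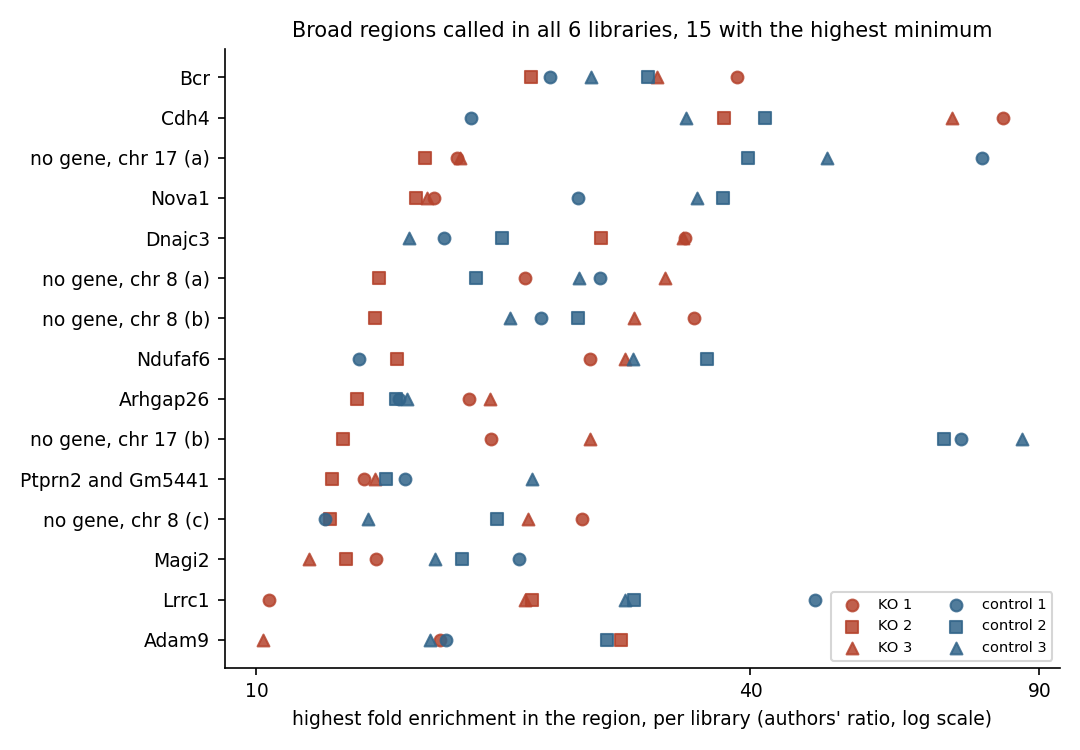
Points are the highest fold enrichment of each library (log scale, authors' ratio) in the 15 regions called in all 6 libraries with the highest minimum, KO libraries in red and control libraries in blue, and regions outside genes on 1 chromosome are told apart by letters. Both chromosome 17 regions, Nova1, Magi2, Lrrc1 and Ptprn2 have all KO points left of all control points, Dnajc3 has them right (7 of 15, against 29 of the 112 broad regions called in all 6), while Bcr, Ndufaf6 and Adam9 are mixed.

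The 23 regions of the KO trio ran from 607 to 1527 bp with 3 to 5 summits, and 17 held a summit in a protein-coding span and 4 lay in no gene span. The widest was in the long non-coding Gm41537 on chromosome 17 from 17505154 to 17506680, with 14.2, 4.90 and 20.6 in KO 1, 2 and 3. A region on chromosome 18 from 73423617 to 73425084 (1468 bp) in no gene had 8.26, 13.5 and 6.76. Scn8a, the sodium channel Nav1.6, had 1390 bp on chromosome 15 from 100916993 to 100918382, within Gm52176 as well, with 7.40, 20.0 and 5.37. Only KO 2 gave a long peak there, and 184 bp were covered in all 3 libraries. The strongest was on chromosome 13 from 23223706 to 23224811 in no gene, with 29.4, 13 and 40.4.

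Further members of the KO trio lay in Itpr2, a calcium release channel (1020 bp, 5.41 to 15.8), Washc2, a subunit of the endosomal WASH complex, with Gm52873 (988 bp, 11.0 to 12.9), and Slain1, a microtubule plus-end protein (937 bp, 4.87 to 9.05). The last 200 bp of the promoter window of Gm52873 lie in the Washc2 region and are a tandem repeat. She, Fndc1 and the mitochondrial cysteinyl-tRNA synthetase gene Cars2 completed the 10 widest, at 911, 884 and 848 bp. Dctn1, the large dynactin subunit, had 748 bp with 6.24, 5.75 and 5.84 in KO 1, 2 and 3. Hsp90aa1, the stress-inducible cytosolic chaperone, had 611 bp with 5.21, 4.20 and 4.89. A long peak was seen in 20 of the 23 regions.

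The 8 regions of the control trio, 606 to 1347 bp wide, comprised 6 in gene spans and 2 in none, and 2 of the genes were on the list of loci that can collect ribosomal RNA reads. Nlgn2, the adhesion protein of inhibitory synapses, had 694 bp on chromosome 11 from 69837057 to 69837750 with 9.80, 10.8 and 7.72 in controls 1, 2 and 3, and every control covered it with a single long peak. Nr4a1, an immediate early nuclear receptor, had 778 bp on chromosome 15 from 101270083 to 101270860 with 9.93, 10.1 and 10.6. Agap2, a GTPase activator of neurons, had 780 bp on chromosome 10 from 127091446 to 127092225 with 3.72, 4.12 and 5.87. Kctd17, an adaptor of ubiquitin ligases, had 636 bp with 5.77, 10.1 and 7.94.

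Rn18s-rs5, a pseudogene related to 18S ribosomal RNA, had 671 bp with 21.3, 9 and 9.19 in controls 1, 2 and 3, and a region of 1347 bp beside it had 1.81, 5.74 and 7.54. Jarid2, like it on the list of loci that can collect ribosomal RNA reads (2 of 8 with a region were broad), had 606 bp with 52.4, 15.1 and 16.4. The last, on chromosome 6 from 3200882 to 3201798 in no gene, had 30.2, 20.3 and 12.9. At Rn18s-rs5, Jarid2 and the chromosome 6 region control 1, called with duplicates kept, was the highest, and the part of duplicate handling in these calls was not tested.

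A summit lay in a protein-coding gene span in 341 broad regions (83.0%), against 87.8% of narrower regions. Another 20 had summits in long non-coding RNA genes without a protein-coding one. No summit lay in any gene span in 40 (9.73%), against 8.05% of narrower regions. The region at Rasd2 is among the 40, because it reaches into the gene span but its summits lie outside. The 411 regions touched 367 genes, 5.70% of the 6442 genes with any merged region, and 26 genes held 2 or more. The median span of the protein-coding gene was 68.9 kb for broad and 74.6 kb for narrower regions.

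Strand was known for 257 broad regions with a highest summit in a single protein-coding gene. With the span divided into 5 equal bins from the 5′ end, their summits lay in the first bin in 28.8%, in the second in 10.5%, in the third in 21%, in the fourth in 17.1% and in the last in 22.6%. The shares for narrower regions were 36.3%, 15.5%, 14.5%, 13.8% and 19.9%. Broad regions thus had a lower share in the first 2 bins and a higher one in the other 3, and the difference was not tested. Within 2 kb of the gene start lay 21.8% of broad and 25% of narrower regions, and within 2 kb of the gene end 13.2% of broad and 9.64% of narrower regions. Exons and introns were not used here.

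**Figure D5:**
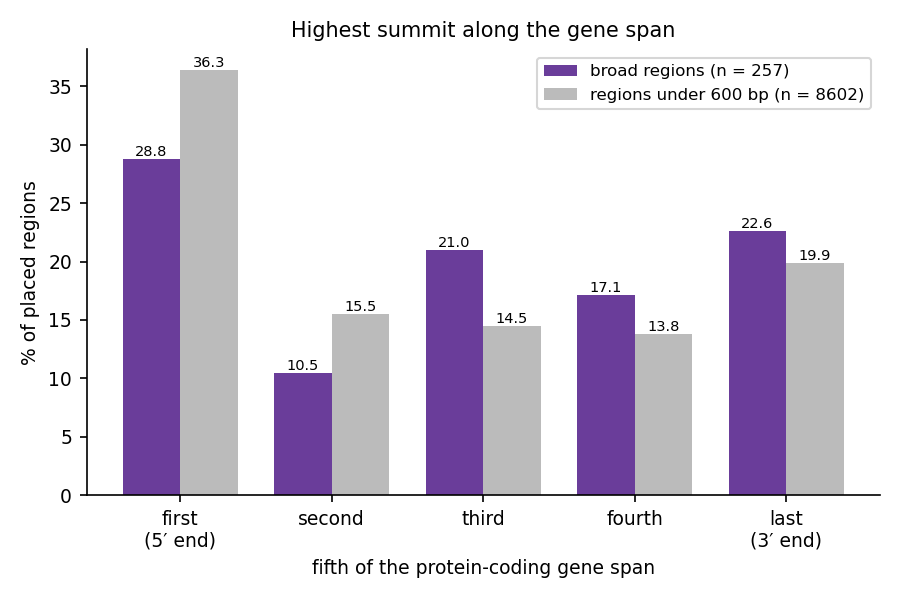
Bars give the % of placed regions whose highest summit lies in each of 5 equal bins of the protein-coding gene span, from the 5′ end on the left to the 3′ end on the right, for broad regions (purple) and narrower regions (grey). The first bin holds 28.8% of broad and 36.3% of narrower regions, the third 21% of broad and 14.5% of narrower regions.

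Some genes held several broad regions. Malat1 had 4, covering 4344 bp in all, among its 5 merged regions. The gene 4930444P10Rik had 3, all from KO libraries. Fhit, the coatomer gene Copg2, Ulk4, the chromatin remodeller subunit gene Arid1b, Map1b, the Ras exchange factor gene Rasgrf1, the lipid scramblase gene Serinc5 and the teneurin gene Tenm3 had 2 each. In Arid1b the regions of 1184 and 1030 bp stood 242 bp apart, and KO 2 was the only KO library with a peak in either. The wider had 12.6 in KO 2 against 8.73, 10.4 and 10.8 in controls 1, 2 and 3. Spinophilin's second region, 210 bp beyond the one at its start, was 1170 bp wide and called in all 6 libraries, with 9.22, 5.64 and 4.53 in KO 1, 2 and 3 and 5.16, 4.78 and 6.27 in controls 1, 2 and 3.

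The gene lists were chosen with earlier results of these data known, so the shares of their members are only described. Of 30 postsynaptic density and glutamate receptor genes with any merged region, 10 had a broad one (33.3%, against 5.70% of all genes with a region). Besides Shank1 and Nlgn2 they were Dlg4, Dlgap2, Dlgap3, Shank3, Homer1, Grin2b, Nlgn1 and Anks1b. Dlgap2, a scaffold that binds Shank and PSD-95 proteins, had 676 bp on chromosome 8 from 14306728 to 14307403. It had 8.16, 8.86 and 6.56 in KO 1, 2 and 3 and 22.0, 23.7 and 19.6 in controls 1, 2 and 3, lower in KO without overlap. Homer1, which ties metabotropic receptors to calcium stores, had 635 bp with 7.97, 3.71 and 11.9 in KO 1, 2 and 3 and 8.80, 14.7 and 14.8 in controls 1, 2 and 3, which overlapped. Grin2b, an NMDA receptor subunit, had 652 bp with 3.63 as its lowest and 7.37 as its highest value.

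On the presynaptic side 5 of 25 genes with a region had a broad one (20.0%), namely Cplx2, Syt1, Unc13a, Nrxn2 and Nrxn3. Syt1, the calcium sensor of fast release, had 1022 bp with 8.27, 12.3 and 6.89 in KO 1, 2 and 3 and 12.0 and 10.1 in controls 2 and 3. Nrxn2, a neurexin, had 897 bp with 8.45, 5.24 and 10.1 in KO 1, 2 and 3 and 15.4, 12.6 and 12.7 in controls 1, 2 and 3, lower in KO without overlap. Cytoskeletal genes had 7 of 40 (17.5%), among them Map1a and Map1b with 2 regions each, the neurofilament genes Nefm and Nefh, Map4 and Tubb4a. Kinases, phosphatases and GTPase regulators had 7 of 36 (19.4%), neuronal splicing and RNA-binding genes 4 of 25 (16.0%) and translation factors and chaperones 4 of 19 (21.1%). Many of these genes have several merged regions, which gives more chances of a broad one, and no list was tested.

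Of 24 striatal projection neuron and dopamine signalling genes with a region, 1 had a broad one (4.17%), near the 5.70% of all genes with a region. It was Adcy5, the main adenylyl cyclase of these neurons, whose region of 1454 bp on chromosome 16 from 35155607 to 35157060 had 10 summits. It had 9.98, 6.84 and 7.62 in KO 1, 2 and 3 and 8, 7.33 and 9.36 in controls 1, 2 and 3, which overlapped. Chromatin regulators had 3 of 36 and ion channels and pumps 3 of 36 (8.33% each). Ribosomal protein genes had 1 of 19, Rpl13a, and histone genes 0 of 11. Abundant non-coding RNAs had 3 of 18 (16.7%), namely Malat1, Meg3 and Norad. Of other cell types, oligodendrocyte markers had 1 of 10 (Mbp), astrocyte markers 1 of 12 (Slc1a2) and cortical excitatory neuron markers 1 of 6 (Slc17a7). Markers of microglia and of endothelial and mural cells had 0 of 5 each, striatal interneurons 0 of 2 and choroid plexus 0 of 3.

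Mbp, a major myelin protein, had 1450 bp on chromosome 18 from 82584018 to 82585467 with low values of 3.35, 3.21 and 2.27 in KO 1, 2 and 3 and 3.44 in controls 2 and 3. Meg3, an imprinted long non-coding RNA of neurons, had 1281 bp with 5.39, 6.57 and 4.61 in KO 1, 2 and 3 and 5.50 and 5.85 in controls 2 and 3, and a second region of 620 bp in KO 2 and KO 3 alone. Malat1, Meg3 and Mbp were thus broad at low enrichment. Gm10222 and Gm10925, pseudogenes on chromosome 1 at a nuclear copy of mitochondrial DNA, had 1095 and 684 bp. The wider had 6.37, 8.46 and 3.70 in KO 1, 2 and 3 and 12.1, 10.0 and 9.70 in controls 1, 2 and 3, and reads of the mitochondrial transcripts themselves could be placed there. Which copy gave the reads is uncertain.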

How the data were processed

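m1A pull-downs and inputs of caudate putamen RNA were sequenced from 3 KO and 3 control samples each, 12 samples in all. Per the submitters' processing notes, cutadapt 2.8, HISAT2 2.1.0, MACS2 2.2.6 and the build GRCm38 were used. Per the file headers, narrow peaks were called for each pull-down with its matched input as background and a q-value cutoff of 0.01, keeping every duplicate tag in control 1. The deposited lists give per peak the pileup, a signal, the −log10 of the p-value and q-value, and the fold enrichment, a ratio. These are the authors' values.

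Peaks were merged across lists with Python 3.11.15 and pandas 2.3.3, and the merging code was tested on simulated peaks. A summit counted for every RefSeq GRCm38.p6 gene span that held it, up to 3 genes. Strand came from the promoter table, which held 32851 windows. Depth is the number of tags the caller used. A list holds no counts, so no counting interval can be given, and a missing peak is not absence of m1A.

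Members and gene lists were chosen with earlier results of these data known. Width uses the peaks of all 6 lists, so recurrence, summits and enrichment of the members are described without a test. Regions named were the 10 widest, the 10 with most summits, the 10 with the widest single peak, the 15 of highest minimum enrichment among those called in all 6 libraries, up to 10 of each genotype's trio by width, the 3 nearest each side of the threshold, the 10 genes with most broad regions, and list members. Genes of the promoter windows, the mitochondrial copy, Edem3, Mapk8ip1, Ppp4r1l-ps and Fto were named after their values were seen. Alternatives varied overlap, peak threshold, list length, width, chromosomes and libraries.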

Additional observations from a re-analysis of the deposited data

Results flagged for a closer look

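Outside chromosomes 1 to 19, 17 merged regions spanned 600 bp or more. They are given because they lie in data that the comparisons above do not use. The mitochondrial genome held 7 of them, the widest at 1737 bp, and chromosome X held 10, the widest at 1140 bp. The widest mitochondrial region was called in all 6 libraries with fold enrichments between 3.60 and 7.69.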

How the results depend on the processing

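None of the 10 summary results moved beyond its tolerance when merging required 50 or 100 bp of overlap or fold enrichment was at least 4. The same held for lists of equal length (3004 peaks) and for all chromosomes. The tolerance was 1.5 times for a count and the exact binomial interval for a share. For the median fold enrichment it was 1 SD between libraries (0.66). For the median number of summits it was the SD over libraries of the mean peaks per called region (0.043). Any shift of that median therefore counted as a change. A −log10 q of at least 5 changed 1, the median number of summits, to 4.50. The width threshold set most counts by construction. At 500 bp there were 706 regions, with 173 called in all 6 libraries, 15 in the control trio, 148 in KO alone, 39 in control alone and a median of 4 summits. At 800 bp there were 171 regions, with 59 called in all 6, 10 in the KO trio, 2 in the control trio, 36 in KO alone, 4 in control alone, a median of 6 summits, a median highest fold enrichment of 14.2 and 81.9% with a single peak of the threshold's length.

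Without control 1 and KO 2 together, 244 regions remained broad, with 11 called in both KO libraries and no control, 32 the other way, 11 in KO alone and a median of 4 summits. Leaving out each library in turn gave 248 to 405 broad regions, 100 to 173 called in all remaining libraries, 11 to 30 in all KO and no control, 4 to 22 in all control and no KO, 11 to 108 in KO alone and 11 to 33 in control alone. It gave medians of 4 to 5 summits and a fold enrichment of 12.0 to 12.3, 81.9% to 88.6% with a long single peak and 81.3% to 85.1% in protein-coding spans. The lowest number, 248, was without KO 2. No paired analysis was possible because the results come from no test. Depth limits every absence call.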

Other observations

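Of the 411 broad regions, 30 neighbouring pairs had a gap under 20000 bp, and no share for narrower regions was computed. The gap was 67 bp in Fhit, 66 bp in Copg2 and 100 bp in Edem3. A pair in no gene on chromosome 8, from 20851396 to 20852410 and from 20859659 to 20860630, was called in all 6 libraries. The second of the pair had fold enrichments of 32.6, 10.3 and 32.1 in KO 1, 2 and 3 and 8.35, 16.4 and 14.5 in controls 1, 2 and 3.

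The share of merged regions that were broad ran from 2.13% on chromosome 13 to 4.82% on chromosome 15, with 4.55% on chromosome 17. The region in Mapk8ip1, a scaffold of the JNK pathway, was the only broad one that overlapped a miRNA hairpin of the RefSeq table, Mir7000. It was 1047 bp wide and had 5.16 and 8.60 in KO 2 and KO 3, against 15, 7.97 and 10.3 in controls 1, 2 and 3. Among the 46 regions found in KO 2 alone, the widest lay in 4930444P10Rik (1387 bp) and Ppp4r1l-ps (1380 bp), and 1 of 1131 bp lay in Fto, which encodes a demethylase of m6A in RNA.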
